A study of Mus musculus with 4 samples.

Results

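The 10 genes of MHC class II presentation described here are H2-Aa, H2-Ab1, H2-Eb1, H2-DMa, H2-DMb1, H2-DMb2, H2-Oa, H2-Ob, Cd74 and Ciita, taken by name from the 32285 genes in the count tables of mouse draining lymph node cells. All 10 were detected. They were followed in 5 classes of cells that were set by gate genes, none of which is a class II gene. B cells held at least 1 UMI (unique molecular identifier, a count of 1 captured transcript) of Cd79a and none of Cd3e. CD4 T cells held Cd3e and Cd4 without Cd8a or Cd79a, and CD8 T cells held Cd3e and Cd8a without Cd4 or Cd79a. Macrophages held at least 2 UMIs of C1qa and C1qb together, and dendritic cells at least 1 UMI of Fscn1, both without Cd3e.

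Single-cell RNA sequencing with the 10x 3′ chemistry was run on 2 control and 2 EV libraries, labelled as replicates of wildtype C57BL/6 lymph nodes. The EV mice received 100 µg of extracellular vesicles (EVs, membrane particles shed by cells) from induced pluripotent stem cells under the skin. The series text places the harvest at day 5, whereas the sample labels state 24 hours for all 4 libraries. The controls are labelled as without treatment, whereas the study's methods state PBS injections. The sources used here do not say how many mice each library holds, so the p-values measure the spread between libraries, which rests on 2 per group.

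Class II molecules carry peptides to the cell surface for CD4 T cells and are made mainly by B cells, dendritic cells and macrophages. H2-Aa with H2-Ab1 encodes the I-A heterodimer, and H2-Eb1 encodes the beta chain of I-E. C57BL/6 mice lack a working I-E alpha chain, so I-E itself is not displayed. Cd74 is the invariant chain that guards the binding groove, H2-DM (H2-DMa with H2-DMb1 or H2-DMb2) exchanges its remnant for peptide, and H2-O (H2-Oa with H2-Ob) holds H2-DM in check. Ciita is the co-activator that switches the family on.

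After the filter on cells, 8141, 7891, 8164 and 8529 cells remained in Control 1, Control 2, EV 1 and EV 2, the order in which 4 values are given throughout. The libraries held 50749656 to 70418672 UMIs, and pairs of libraries shared 12 to 26 cell barcodes. The B gate held 3016, 2503, 4866 and 4301 cells, the CD4 T gate 1383, 1624, 923 and 1267, and the CD8 T gate 1682, 1861, 1003 and 1355. The macrophage gate held 42, 80, 91 and 67 cells and the dendritic gate 72, 123, 94 and 87. The B cell markers Cd79b and Bank1 were seen in at least 97.7% of the B gate's cells in every library. C1qc was seen in 71.2% to 78.6% of the macrophage gate, but Cd79a also in 11.9%, 12.5%, 22.0% and 23.9% of it. The dendritic gate was mixed, with Tmem123 in 77.7% to 83.9% of cells, Ccr7 in 37.5% to 55.2%, Itgax in 5.69% to 10.3% and Cd79a in 13.8% to 23.6%. A cell could fall in more than 1 of the B, macrophage and dendritic gates.

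Of the 10 genes, 9 lie on the GRCm38 chromosomes named here: Ciita on chr16:10480059-10528418 (plus strand), and the 8 H2 genes on chromosome 17 between the start of H2-Oa at 34092340 and the end of H2-Eb1 at 34316674. H2-Aa (chr17:34282744-34287823) is read from the minus strand and the other 7 from the plus strand. Exons of H2-DMa (chr17:34119541-34139101) overlap exons of Brd2 on the other strand, exons of H2-Oa (chr17:34092340-34095234) overlap the antisense gene BC051537, and exons of Ciita overlap Dexi on the other strand. Promoter windows from RefSeq (GRCm38.p6) were found for 7 of the 10 genes. Of these, the windows of H2-Aa and H2-Eb1 are printed, as a pair of classical chain genes whose 120 bases before the start site hold no annotated exon, 5′ to 3′ on the strand of the gene. Capitals mark the Y-box core CCAAT, which NF-Y binds and which reads ATTGG on the other strand, and AGCAAC in the X box, at which RFX binds and which reads GTTGCT on the other strand.

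H2-Aa, chr17:34287824-34287943, minus strand: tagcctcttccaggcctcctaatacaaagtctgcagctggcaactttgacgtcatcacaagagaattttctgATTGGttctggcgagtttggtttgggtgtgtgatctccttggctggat
H2-Eb1, chr17:34305747-34305866, plus strand: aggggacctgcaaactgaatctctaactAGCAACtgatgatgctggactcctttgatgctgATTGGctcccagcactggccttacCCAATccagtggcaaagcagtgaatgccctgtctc

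Positions count back from the start site and give the first base of a match. In H2-Aa the CCAAT core began at position -48. In H2-Eb1 it stood at -59 and, in the other direction, at -35, and AGCAAC began at -92. In this 120-base window, 21.3% of all 32851 promoters held CCAAT in either direction, 6.34% held AGCAAC and 1.35% held both. H2-Oa and H2-Ob also held both, H2-DMb1 and H2-DMb2 held CCAAT alone, and the windows of H2-DMa held neither. In the windows of H2-DMb1, H2-Oa, H2-DMb2 and H2-Ob, 119, 39, 13 and 2 of the 120 bases were annotated exon of the same gene. These are exact matches of letters and not measured binding. A match with a base changed was not marked or counted, such as GGCAAC in the printed window of H2-Aa.

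Class II transcripts sat mostly in B cells. In the joint fit over 5 classes and 4 libraries, the 10 genes summed to 23995 ± 1487 CPM (UMIs of the gene for every 1000000 of the sum, after TMM scaling of library sizes; mean ± SD, n = 4) in B cells, 13135 ± 3360 in macrophages and 12703 ± 3279 in dendritic cells. The CD8 T gate held 179 ± 17.7 CPM and the CD4 T gate 169 ± 48.5. The B gate alone held 88.1%, 87.1%, 92.6% and 89.8% of all class II UMIs of the filtered cells, and cells in none of the 5 gates held 9.69%, 10.2%, 6.10% and 8.63%.

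**Figure D1:**
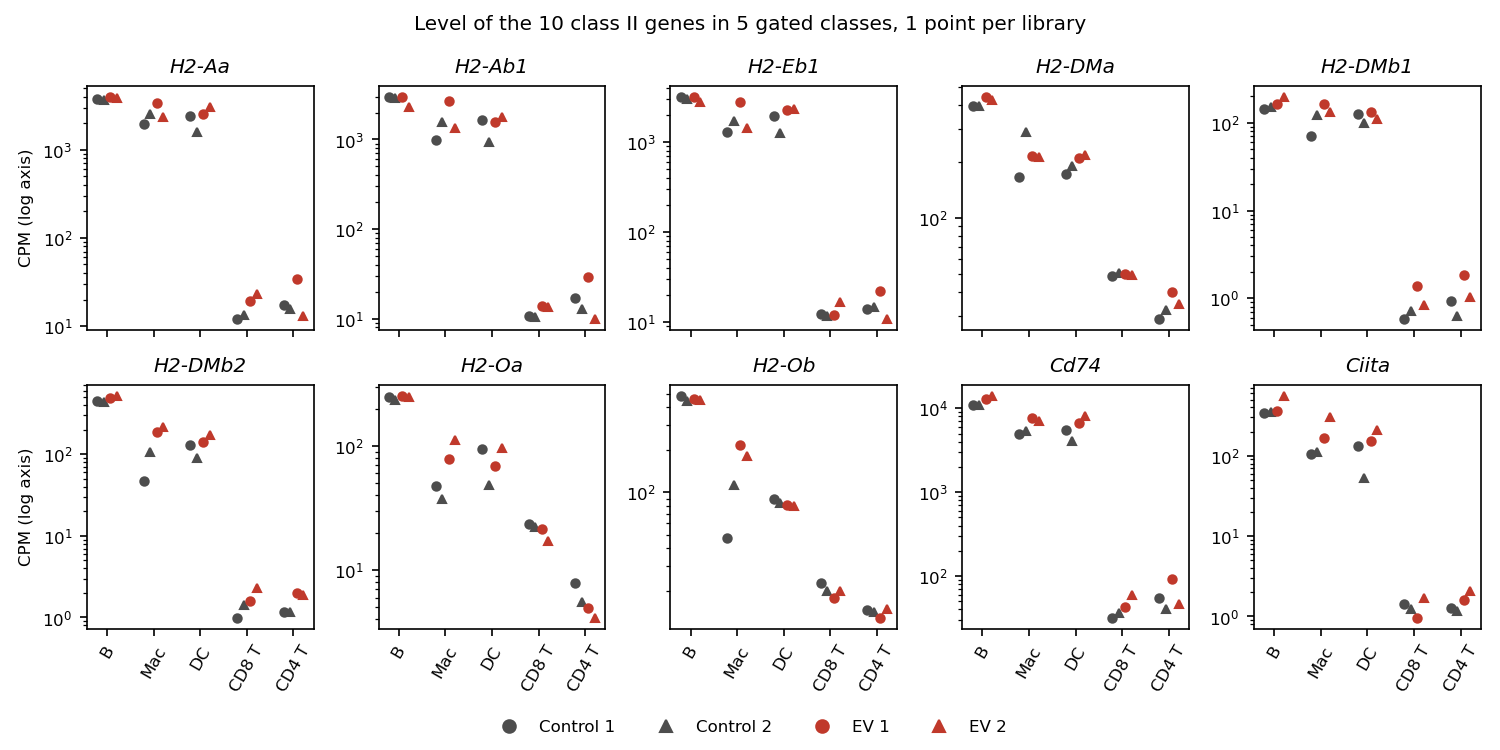
CPM of each gene on a log axis in the 5 gated classes, 1 point per library (circles for replicate 1, triangles for replicate 2, control in grey and EV in red). For all genes but H2-DMb1 the B cell mean lies clearly highest, macrophages and dendritic cells follow, and the T cell points lie far lower, with H2-DMa, H2-Oa and H2-Ob the least far.

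Cd74 reached 12192 ± 1573 CPM in B cells, 6250 ± 1350 in macrophages and 6129 ± 1733 in dendritic cells. Dendritic cells differed from B cells by -1.02 on the log2 scale (SE 0.13, edgeR adjusted p = 9.9e-08), and macrophages by -0.97 (SE 0.13, edgeR adjusted p = 1.6e-06). All 10 genes were lower in the dendritic than in the B gate, where 53.1% of the 13849 genes tested were called and 29.8% called lower, and 9 of 10 were lower in the macrophage gate, where 32.0% were called and 19.9% called lower. The exception was H2-DMb1 in macrophages, at -0.36 (SE 0.18, edgeR adjusted p = 0.14), which was called without EV 1 (adjusted p = 0.044), while H2-Aa was not called without Control 1 (adjusted p = 0.054). The median over the 10 genes was -1.05 in dendritic cells and -0.92 in macrophages, beside -0.25 and -0.66 over all genes tested. With RLE factors, those of DESeq2, in place of TMM, the medians over all genes were -0.09 and -0.49 and those of the 10 genes -0.88 and -0.74, with 10 and 9 of the 10 called. DESeq2, which changes the factors and the test together, gave -0.01 and -0.07 over all genes and -0.88 and -0.75 over the 10, and called 8 of 10 in each contrast. With macrophages that held no UMI of Cd79a or Fscn1, the median of the 10 genes was -1.35 and that of all genes -1.52.

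The size of the difference ranged widely between the genes. H2-Ob, a chain of the H2-DM inhibitor, differed most, by -2.46 in dendritic cells (SE 0.09, edgeR adjusted p = 6.6e-19), and H2-DMb2 and H2-Oa followed at -1.87 and -1.71. H2-DMb1 was closest to its B cell level, at -0.50 (SE 0.11, edgeR adjusted p = 0.00027), and without EV 2 at -0.22 (adjusted p = 0.14). H2-DMb1 and H2-DMb2 encode alternative partners of H2-DMa. H2-DMb1 was at 164 ± 22.8 CPM in B cells and 117 ± 14.6 in dendritic cells, and H2-DMb2 at 475 ± 38.7 and 133 ± 33.8 CPM. These are closely similar neighbours, and how reads shared by both copies were assigned is not given in the sources used here. The gates overlapped, and the B cells inside the dendritic and macrophage gates were not separated from them in these values.

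The share that each gene took of all class II UMIs needs no scaling of libraries. Cd74 took 50.7% ± 3.51 in B cells, 48.0% ± 4.60 in macrophages and 48.1% ± 2.15 in dendritic cells, and H2-Aa 16.0% ± 0.63, 19.7% ± 1.65 and 18.9% ± 0.52 (mean ± SD over 4 libraries). H2-Ob took 1.92% ± 0.16, 1.00% ± 0.38 and 0.70% ± 0.22. These shares count B gate cells that also fell in the macrophage gate (5, 10, 20 and 16) or dendritic gate (17, 17, 21 and 18). The median B gate cell held 99, 116, 147 and 144 class II UMIs, against 6, 5, 9 and 9 in the macrophage gate. In the dendritic gate the median was 17.5, 6, 14 and 16. The part of the shared cells in the likeness of these classes was not tested. T cells stood apart. H2-DMa took 1.74% ± 0.04 of the class II UMIs in B cells but 20.7% ± 3.96 in the CD4 gate and 27.9% ± 2.69 in the CD8 gate. H2-Oa took 1.03% ± 0.05, 3.49% ± 1.25 and 11.9% ± 2.54.

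**Figure D2:**
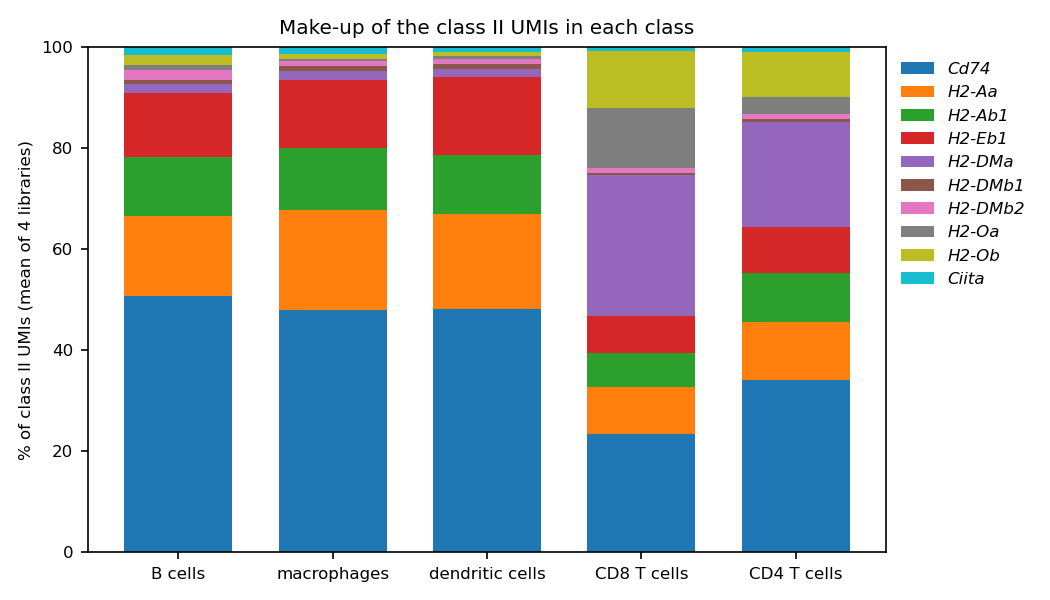
Share of each gene in the class II UMIs of a class, in percent, as the mean of 4 libraries. Cd74 takes 48.0% to 50.7% in B cells, macrophages and dendritic cells, and H2-DMa, H2-Oa and H2-Ob take larger shares in both T classes than in the other 3.

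Droplets carry free RNA, so class II UMIs in T cells were set against 13 B cell genes measured in the same T cell sums. RNA of 1 source would keep its genes in 1 ratio in every class. The level in a T gate was expressed as percent of the level in the B gate of the same library (in CPM without TMM scaling). For the 13 B cell genes the median was 0.34%, 0.23%, 0.49% and 0.35% in CD4 T cells and 0.26%, 0.32%, 0.29% and 0.33% in CD8 T cells. Of these genes Ighm stood apart, at 10.2% ± 0.96 and 10.5% ± 0.55, and Cd79b reached 1.31% ± 0.05 in CD8 T cells. In reverse, 5 T cell genes in the B gate had medians of 1.75%, 1.43%, 0.70% and 0.61% of their CD4 T level. Against their CD8 T level the medians were 2.10%, 1.64%, 0.85% and 0.81%. With suspected doublets removed these reverse medians were 0.99%, 1.00%, 0.60% and 0.52% (CD4) and 1.27%, 1.06%, 0.72% and 0.61% (CD8). Those of the 13 B cell genes were then 0.34%, 0.23%, 0.49% and 0.34% in CD4 T cells. In CD8 T cells they were 0.24%, 0.32%, 0.29% and 0.29%. The T gates exclude cells with a Cd79a UMI, and the part of this in the lower B cell ratios was not tested.

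Cd74 lay near the medians of the B cell genes, at 0.50%, 0.36%, 0.69% and 0.32% in CD4 T cells and 0.27%, 0.31%, 0.30% and 0.39% in CD8 T cells. H2-Aa, H2-Ab1, H2-Eb1, H2-DMb1, H2-DMb2 and Ciita likewise averaged between 0.30% and 0.66% in both T classes. In the CD4 gate of EV 1, however, H2-Aa was at 0.84%, H2-Ab1 at 0.95% and H2-DMb1 at 1.10%. With the other cell filter (no upper limits on genes and UMIs, mitochondrial limit 5%) these 7 genes averaged between 0.50% and 1.25% in the CD4 gate, and between 0.35% and 0.92% in the CD8 gate. The median over all 10 class II genes was then 1.27%, 0.89%, 1.55% and 0.86% in CD4 T cells, beside 0.35%, 0.23%, 0.48% and 0.38% for the 13 B cell genes. In CD8 T cells it was 0.34%, 0.91%, 0.92% and 0.77%, beside 0.24%, 0.29%, 0.28% and 0.31%. How much of the UMIs of these 7 genes in T cells is free RNA was not tested further.

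H2-DMa, H2-Oa and H2-Ob did not share that ratio. H2-DMa was at 7.07%, 7.77%, 8.72% and 7.93% of its B cell level in CD4 T cells and at 11.4%, 11.8%, 10.4% and 10.8% in CD8 T cells. H2-Oa was at 3.12%, 2.24%, 1.87% and 1.65% in CD4 T cells and at 8.80%, 8.69%, 7.80% and 6.54% in CD8 T cells. H2-Ob was at 2.94%, 3.06%, 2.70% and 3.25% in the CD4 gate, and in the CD8 gate at 4.30%, 4.15%, 3.54% and 4.17%. In every library all 3 lay above Cd74, and also above the median of the 13 B cell genes.

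**Figure D3:**
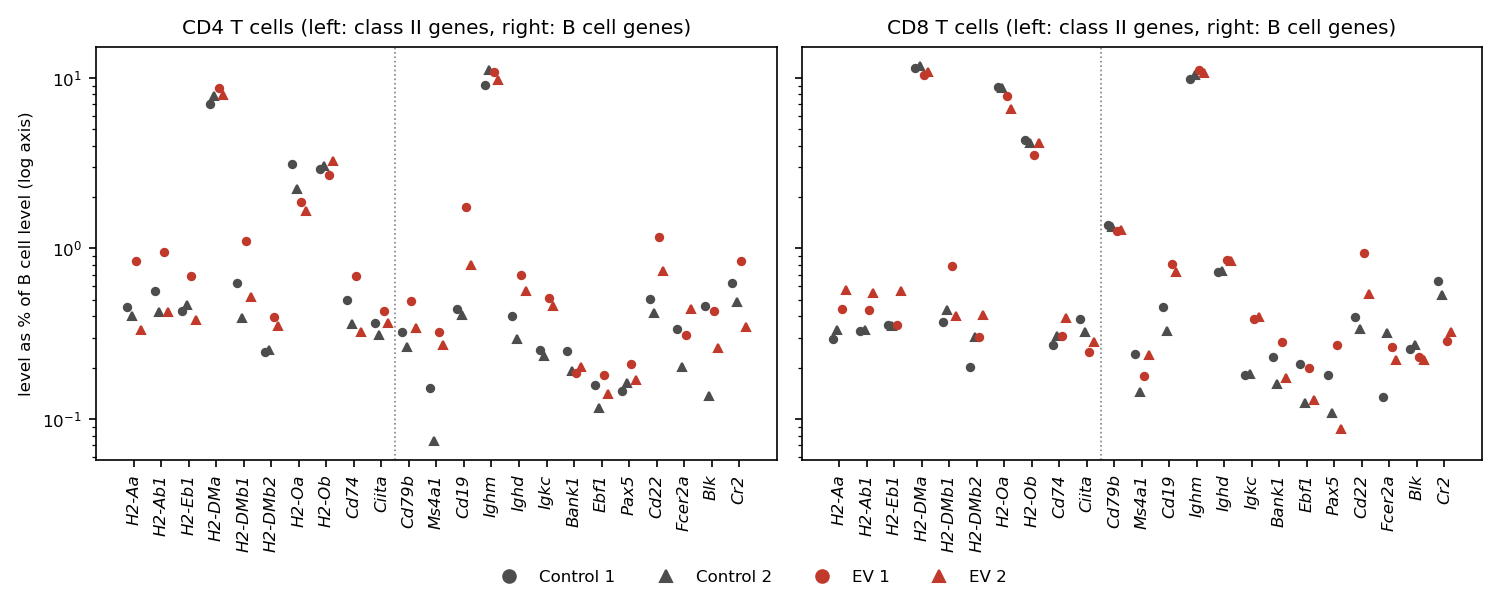
Level in CD4 T cells (left) and CD8 T cells (right) as percent of the B cell level of the same library, on a log axis, for the 10 class II genes and 13 B cell genes, 1 point per library. H2-DMa, H2-Oa and H2-Ob lie above the other class II genes in both panels, and among the B cell genes Ighm lies near 10.2% and 10.5%.

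The 2 T classes also differed from each other in these genes. H2-Oa was higher in CD8 than in CD4 T cells by 1.94 on the log2 scale (SE 0.13, edgeR adjusted p = 1.4e-12), at 21.1 ± 2.74 against 5.60 ± 1.60 CPM, and the lowest CD8 library lay above the highest CD4 library. H2-DMa was higher by 0.57 (SE 0.06, edgeR adjusted p = 3.5e-08) and H2-Ob by 0.50 (SE 0.09, edgeR adjusted p = 6.5e-05). Cd74 went the other way, by -0.44 (SE 0.15, edgeR adjusted p = 0.029), and that difference was -0.05 without EV 1 and -0.29 without Control 1 (adjusted p = 0.82 and 0.26). These 4 of the 10 genes were called, beside 30.5% of all genes tested. The counts behind H2-Oa were 68, 62, 37 and 40 UMIs in the CD4 gate, and 283, 340, 200 and 204 in the CD8 gate. After thinning every cell to 1000 UMIs, H2-Oa was seen in 0.65%, 0.43%, 0.43% and 0.39% of CD4 T cells, and in 2.68%, 1.93%, 1.50% and 1.70% of CD8 T cells, against 4.05%, 3.26%, 3.36% and 2.76% and 14.3%, 14.7%, 16.4% and 13.1% before thinning. Exons of H2-DMa overlap those of Brd2 on the opposite strand, and the part of that overlap in the T cell counts was not tested.

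Over all filtered cells together, class II transcripts were higher in EV. CPM in this total were taken over the UMIs of all genes, without TMM scaling. The 10 genes summed to 7190.2 and 6217 CPM in the control and 13409 and 11670 in the EV libraries, a 1.87-fold difference of the means (6704 ± 688 against 12540 ± 1230.2, SD, n = 2 each), and the groups did not overlap for any of the 10 genes, all higher in EV. Of all 18793 genes with at least 10 UMIs, 57.0% did not overlap either and 23.5% were higher in EV without overlap. The exact permutation test (two-sided) gave p = 0.33, the smallest value that 2 against 2 libraries allow. The same libraries differed in B cells: the B gate held 37.0%, 31.7%, 59.6% and 50.4% of the cells. In such a total, more cells of a type and more RNA per cell cannot be told apart.

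Within B cells, none of the 10 genes passed the test of EV against control (edgeR quasi-likelihood test, Benjamini-Hochberg adjusted p under 0.05), whereas 338 of 13270 genes, 2.55%, did. At unadjusted p under 0.05, 2 of 10 genes and 2512 of all genes lay. DESeq2 called 1 of the 10 genes, Cd74, beside 459 of all 13270. The median log2 fold change of the 10 genes was 0.12 and that of all genes -0.00. Groups of libraries did not overlap for 7 of the 10 genes, all higher in EV, beside 51.8% of all genes in either direction.

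Cd74 was at 10639.9, 10744, 12672 and 13969 CPM in B cells. Both EV libraries lay above both controls, with a difference of 0.32 on the log2 scale (SE 0.15, edgeR adjusted p = 0.29). Ciita was at 330.5, 347.5, 356.3 and 550.5 CPM, where EV 2 alone stood clear of the others, and it differed by 0.42 (SE 0.18, edgeR adjusted p = 0.25) on the log2 scale. Among the classical chains, H2-Aa was at 3695, 3632, 3926 and 3815 CPM and H2-Eb1 at 3077, 2955, 3109 and 2761, with log2 fold changes of 0.08 and -0.04. H2-Ab1 was at 2909.5, 2846, 2947 and 2275, with EV 2 below the rest, at -0.14 (SE 0.15). Among the peptide editors, H2-DMb1 was at 140.9, 148.8, 161.7 and 193.3 CPM, with both EV libraries above the controls and a log2 difference of 0.29 (SE 0.11, edgeR adjusted p = 0.19). H2-DMb2 and H2-DMa were at 0.20 and 0.15, and H2-Oa and H2-Ob at 0.07 and -0.01. The libraries did not carry 1 pattern: without EV 1, 5 of the 10 genes were called, beside 2584 of 13157 genes (19.6%), with H2-Ab1 at -0.34 and Ciita at 0.70, and without EV 2 none of the 10 was.

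**Figure D4:**
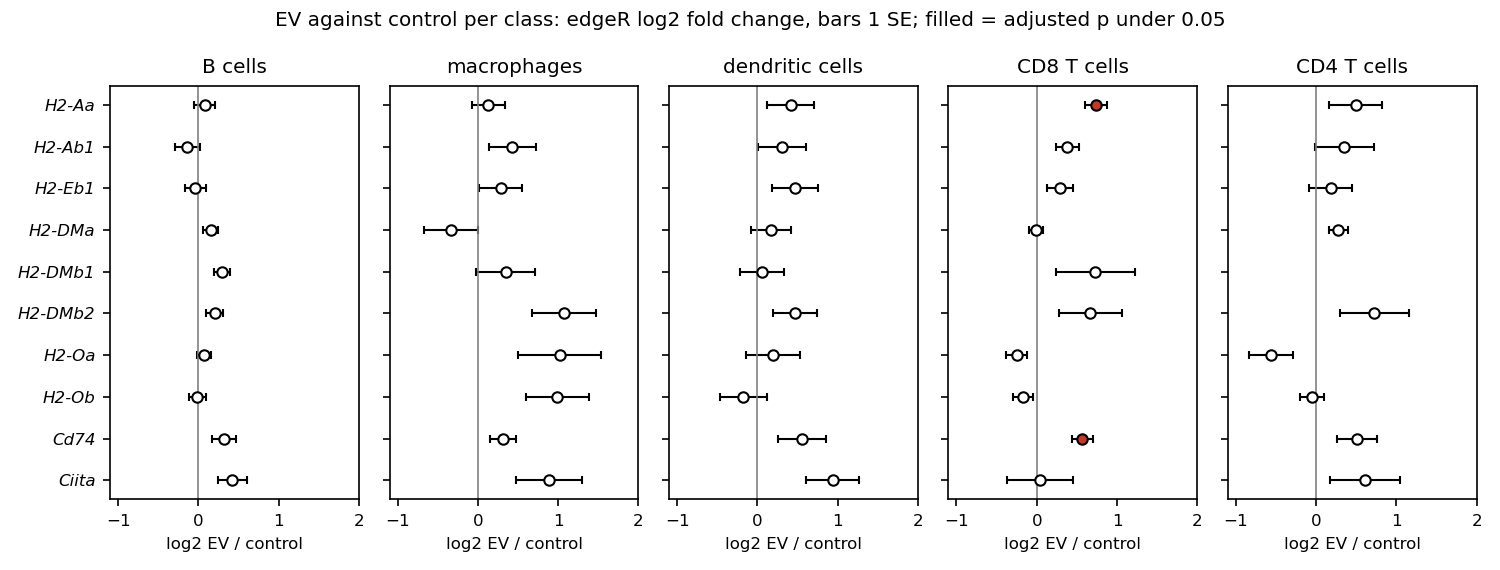
Log2 fold change of EV over control for each gene in the 5 classes, with bars of 1 SE, worked back from the edgeR F statistic on 2 against 2 libraries. Filled points passed an adjusted p under 0.05, which H2-Aa and Cd74 in CD8 T cells did. H2-DMb1 in CD4 T cells was below the count filter and has no point.

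In CD8 T cells, 2 of the 10 genes were called, beside 2.2% of all 12284 genes, and groups did not overlap for 7, beside 49.7%. H2-Aa was at 11.0, 12.2, 17.4 and 21.3 CPM, with a log2 difference of 0.74 (SE 0.14, edgeR adjusted p = 0.021). Cd74 was at 29.2, 33.4, 38.8 and 53.8 CPM, with 0.57 (SE 0.13, edgeR adjusted p = 0.048). Neither passed when the gates were strict (adjusted p = 0.086 and 0.092), when suspected doublets were removed (0.056 and 0.060), after thinning to 1000 UMIs (0.21 and 0.12) or under another cell filter (0.36 and 0.30). Cd74 was also no longer called without Control 1, at 0.48, or without EV 2, at 0.30. Both are among the 7 genes whose T cell level lay near the ratio of the B cell genes. In the same CD8 T cell sums the B cell gene Igkc rose by 1.16 on the log2 scale (SE 0.12, edgeR adjusted p = 0.00045), while Cd79b was at 0.01 and Ms4a1 at 0.06, and the median of the 13 B cell genes was 0.07. The share of B cells was higher in the same EV libraries, and its part in these 2 calls was not tested. Of the 3 genes above that ratio, H2-DMa was at 44.8, 46.2, 45.7 and 45.0 CPM and at -0.01 on the log2 scale (SE 0.08), H2-Oa at -0.25 (SE 0.13) and H2-Ob at -0.17 (SE 0.12), and none was called.

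In CD4 T cells, 9 of the 10 genes passed the count filter and none was called, beside 1.09% of 11933 genes. DESeq2 called none of the 9. At unadjusted p under 0.05 lay 1 of the 9, H2-DMa at 0.28 (SE 0.12), and 1993 of all genes. Groups did not overlap for 4 of the 9, beside 49.4% of all genes. EV 1 stood apart. H2-Aa was at 16.9, 14.8, 33.1 and 12.5 CPM and Cd74 at 53.3, 39.2, 87.8 and 44.3, with EV 2 within or below the controls. Without EV 1 the log2 fold change of H2-Aa went from 0.50 to -0.33 and that of Cd74 from 0.51 to -0.04. H2-Oa was at 7.56, 5.26, 4.71 and 3.96 CPM, lower in both EV libraries, at -0.56 (SE 0.27, edgeR adjusted p = 0.33).

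In macrophages, none of the 10 genes and none of the 3497 genes tested (0.0%) passed edgeR's test, while 2 of the 10 and 316 of all genes lay at unadjusted p under 0.05 and DESeq2 called 4 genes, none of them a class II gene. Groups did not overlap for 6 of the 10, beside 41.4% of all genes. Cd74 was at 7144, 6856, 8914 and 8459 CPM, higher in both EV libraries at 0.31 (SE 0.16, edgeR adjusted p = 0.59). In macrophages without UMIs of Cd79a or Fscn1, Cd74 was at 6558, 7044, 8750 and 6480 CPM, with EV 2 below both controls. That fit kept 1395 genes rather than 3497, so its CPM are on another scale. H2-Aa was at 2834, 3325, 3912 and 2828 CPM, and the groups overlapped. The largest differences were in H2-DMb2, at 68.7, 137.1, 216.4 and 262.2 CPM and 1.07 (SE 0.39, edgeR adjusted p = 0.47), H2-Oa at 1.02 (SE 0.52) and H2-Ob at 0.99 (SE 0.39). The H2-DMb2 values rested on 4, 20, 52 and 51 UMIs. Cells that also met the B gate numbered 5, 10, 20 and 16. The 13 B cell genes were all higher in both EV libraries, with a median log2 fold change of 0.84. In macrophages without UMIs of Cd79a or Fscn1, the genes H2-DMb2, H2-Oa, H2-Ob and Ciita fell below the count filter. The part of B cell RNA in these differences was not tested further.

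In dendritic cells, none of the 10 genes was called, beside 11 of 7421 genes, 0.148%, and DESeq2 called 4 genes, none of them a class II gene. At an unadjusted p under 0.05 lay 568 of all genes and 1 of the 10, Ciita, at 150.4, 57.6, 164.0 and 217.3 CPM, with both EV libraries above the controls and a log2 difference of 0.94 (SE 0.33, edgeR adjusted p = 0.38). Cd74 was at 6247, 4501, 7285 and 8572 CPM and at 0.56 (SE 0.30, edgeR adjusted p = 0.76), again without overlap. Control 2 was lowest for 8 of the 10 genes. The median log2 fold change of the 10 genes was 0.36, and groups did not overlap for 7 of them, beside 36.6% of all genes.

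In the median cell of the dendritic gate only 5, 2, 6 and 4 of 1000 UMIs were class II, against 24, 23, 25 and 25 in B cells. With dendritic cells that held no UMI of Cd79a, C1qa or C1qb, none of 5661 genes was called. Of the class II genes only H2-DMa and H2-DMb1 then turned in direction, to lower in EV. Cells with at least 3 Fscn1 UMIs were also summed, a choice made after seeing the data. These were 35, 49, 46 and 46 cells, in which Apol7c was seen in 65.2% to 82.6% and Cacnb3 in 73.9% to 87.0%. No other marker is given for these cells, which leaves out Tmem123, Ccr7, Itgax and Cd79a, given above for the wider gate. Purity and B cell content of the 2 gates are not compared. The part of B cell RNA in the values below was not tested. Cd74 was at 2944, 2247, 6005 and 5227 CPM, differing by 1.11 on the log2 scale (SE 0.29), and both EV libraries lay far above both controls. H2-Aa was at 1256, 849.9, 2306 and 1983 CPM (1.03, SE 0.29), H2-Eb1 at 1001, 632.7, 1942 and 1496 CPM (1.08, SE 0.31) and H2-Ab1 at 598.8, 281.5, 1082 and 897.5 CPM (1.19, SE 0.35). H2-Oa and H2-Ob, at -0.33 and -0.46, overlapped between the groups. H2-DMb1 did not, but was at only 20.9, 13.4, 31.8 and 44.8 CPM. The median log2 fold change of the 10 genes was 1.06 beside 0.01 over all 5569 genes, and 7 of the 10 had an unadjusted p under 0.05, beside 359 of all genes (6.45%), but neither any of the 10 nor any other gene passed the adjustment (edgeR adjusted p = 0.43 for Cd74).

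**Figure D5:**
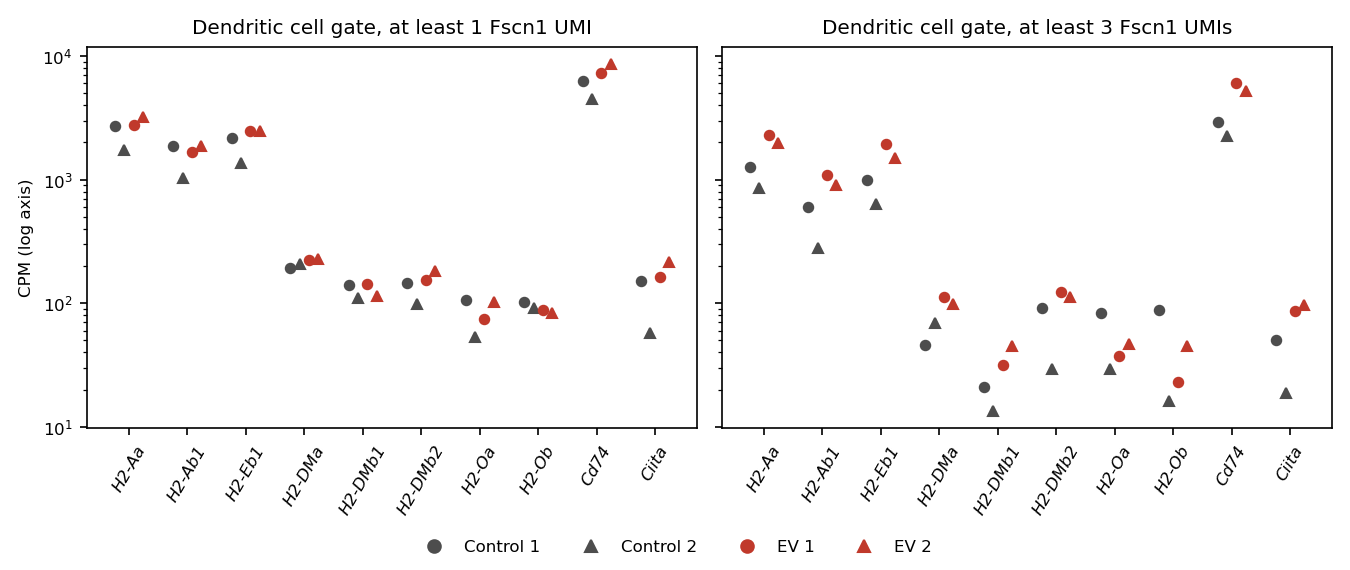
CPM on a log axis of the 10 genes in the dendritic gate with at least 1 Fscn1 UMI (left) and with at least 3 (right), 1 point per library. The panels come from separate fits, so their CPM are not on 1 scale. On the right both EV libraries lie above both controls for H2-Aa, H2-Ab1, H2-Eb1, H2-DMa, H2-DMb1, H2-DMb2, Cd74 and Ciita, and on the left the groups lie closer together.

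The EV effect in macrophages, dendritic cells and CD4 T cells was also compared with that in B cells in the joint fit. The effect in CD8 T cells, the only class with class II genes called above, was not compared. None of the 10 genes differed in macrophages, dendritic cells or CD4 T cells from its effect in B cells, beside 0.0361%, 0.181% and 1.32% of the 13849 genes tested by edgeR. At unadjusted p under 0.05 lay 2, 3 and 1 of the 10 genes, beside 955, 1252 and 1227 of all genes, and DESeq2 called none of the 10 in any of the 3 contrasts.

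Of 36 other genes of the class II pathway listed, 32 symbols were in the count tables. The list was chosen with earlier results of these data known, so counts of its genes are descriptions. In B cells 6 of these 32 rose, beside 1.57% of all genes called higher, and none fell. Cd83, which keeps class II on the surface by blocking the ubiquitin ligase MARCH1, was at 301.2, 275.5, 618.5 and 720.1 CPM, higher by 1.21 on the log2 scale (SE 0.12, edgeR adjusted p = 0.0035). Socs1, a brake on interferon signalling, was at 5.87, 7.15, 19.0 and 17.2 CPM, at 1.48 (SE 0.14, edgeR adjusted p = 0.0035). Ifi30, the lysosomal thiol reductase that unfolds antigens, was at 239.6, 274.7, 404.6 and 418.8 CPM, at 0.68 (SE 0.11, edgeR adjusted p = 0.018). For these 3 genes both EV libraries lay well above both controls.

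The lysosomal protease gene Lgmn rose by 0.42, the interferon gamma receptor chain Ifngr2 by 0.45 and the repressor Bcl6 by 0.53 in B cells on the log2 scale, with edgeR adjusted p = 0.045, 0.035 and 0.0496. Ifi30 and these 3 genes were not called without Control 1 (adjusted p from 0.17 to 0.37) or without Control 2 (from 0.089 to 0.33), whereas Cd83 and Socs1 were called with any 1 library left out. March1 itself was at 679.9, 714.8, 659.1 and 888.0 CPM in B cells, with overlapping groups. The subunits of RFX and NF-Y and the cathepsins Ctss, Ctsb, Ctsd, Ctsh, Ctsl and Ctsz were not called. In CD4 T cells 1 of 29 tested pathway genes rose, beside 0.788% of all genes, Socs1 by 1.09 (SE 0.21, edgeR adjusted p = 0.040). In CD8 T cells 2 of 29 rose, beside 1.34% of all genes, Socs1 by 1.01 and Ifngr1 by 0.72 (edgeR adjusted p = 0.0065 and 0.023). None of 21 tested in macrophages and none of 29 in dendritic cells was called.

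The 10 genes whose levels ran most like the summed class II level over the 20 sums of 5 classes in 4 libraries, among 8562 ranked genes, were Ly86, Lyn, Snx8, Blnk, Napsa, Pkig, Pkib, Fgd2, Wdfy4 and Syk, with Pearson r of log2(CPM + 1) from 0.996 to 0.991. Sums of the same library share cells of its preparation and depth, and the B to T contrast sets much of each r, so these are descriptions. Ly86 averaged 532 CPM in B cells, 372 in macrophages, 267 in dendritic cells and 1.51 and 2.09 in CD8 and CD4 T cells. Napsa, an aspartic protease, stood at 498, 185, 198, 1.21 and 1.80 CPM in the same order.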

How the data were processed

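Per the submitters' processing notes and the study's methods, the authors deposited 1 matrix of UMI counts per library, aligned to mm10 with Cell Ranger 7.1.0. The counts are whole numbers without normalization. The annotation release and the use of intronic reads are not given in the sources used here. Cells with 200 to 5000 genes, at most 20000 UMIs and under 10% mitochondrial UMIs were kept. Doublets were left in, and Scrublet (expected rate 6%) marked 1.58% to 3.76% of cells per library, which were removed in an alternative.

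Counts of a class were summed per library and tested in edgeR 4.0.16 (TMM, filterByExpr, quasi-likelihood F test, two-sided, Benjamini-Hochberg over all genes of the class, called at adjusted p under 0.05), with at least 30 cells per library. Level and interaction contrasts came from 1 fit of 20 sums with library as a block. Each SE given with an edgeR value is the absolute log2 difference divided by the square root of its F statistic. It is not a standard error reported by the fit. Cells were never replicates. Further software was Python 3.11.15, scanpy 1.11.5, R 4.3.3, limma 3.58.1 and DESeq2 1.42.0. Fits were tested on simulated data. The libraries held 50749656 to 70418672 UMIs, and 2 libraries per group limit the precision.

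Named with values were the 10 genes in every class, pathway genes called in a class, gate genes and markers, and the 10 genes of most similar level. A gene of the pathway list is not reported here. The genes and lists were chosen with earlier results of these data known. Annotation came from GENCODE M21 (GRCm38), and promoters from RefSeq GRCm38.p6. Alternatives were DESeq2, RLE factors, no count filter, a replicate block, thinning to 1000 UMIs, strict gates and a ribosomal limit of 60%. Others were another cell filter (no upper limits, mitochondrial limit 5%), doublet removal and library sizes without dominant genes. B cells with an Ighd UMI, a log2 change of at least 0.5 and leaving out each library were also used. Strict gates left out cells with a UMI of Cd79a, C1qa, C1qb or Fscn1 where that gene marks another class. Cd4 and Cd8a UMIs were not excluded beyond the main gates. A dendritic gate of at least 3 Fscn1 UMIs was added after seeing the data.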

Additional observations from a re-analysis of the deposited data

Results flagged for a closer look

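For 3 pathway genes the EV effect differed between classes in the joint edgeR fit. March1, the ubiquitin ligase that removes class II from the surface, had a log2 effect 2.07 higher in macrophages than in B cells (SE 0.26, adjusted p = 0.00015), at 137.4, 164.6, 549.3 and 714.7 CPM in macrophages. The B cell gene Cd22 differed in the same contrast by 2.14. With macrophages free of Cd79a and Fscn1 UMIs, the edgeR adjusted p for March1 was 0.65. March1 was also not called without Control 2. Between CD4 T and B cells the effect on Ifi30 differed by -0.74 and that on Ifngr1 by 0.72 (edgeR adjusted p = 0.0048 and 0.031). Without EV 1 the Ifngr1 difference was 0.19 (adjusted p = 0.86). The Ifi30 and Ifngr1 differences were not called without Control 1 (adjusted p = 0.23 and 0.45) or without Control 2 (0.12 and 0.18).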

How the results depend on the processing

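Precision is set by 2 libraries per group, and in the macrophage gate also by 42 to 91 cells. Of 957 values for single genes under other settings, 891 kept their direction and their side of the threshold, 39 were no longer called, 8 became called and 19 reversed. A value not called in the main fit counted as kept where it stayed uncalled in the same direction. The ribosomal limit removed only 3, 4, 3 and 0 cells, and the limit on log2 change reused the main fold changes. These counts therefore do not measure how stable the called results are. The cause was not tested for any change below.

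Counts of class II genes called for EV against control moved as follows. B cells had 1 with DESeq2, beside 3.46% of all genes tested, and 2 with no filter on low counts, beside 6.44%. CD4 T cells had 2 with no filter, beside 3.89%. CD8 T cells had 1 with DESeq2, beside 1.32%. They had 0 after thinning, with strict gates, with the other cell filter and without doublets, beside 1.53%, 1.52%, 0.965% and 2.5%. For differences of the effect from B cells, macrophages had 2 with no filter, beside 90 of 23644 genes, and dendritic cells 2 with no filter, beside 142, and 1 after thinning, beside 39 of 9876. Counts over all genes in B cells were 1392 (6.44%) with no filter, 512 (3.9%) with strict gates and 688 (5.15%) with the other cell filter. In CD4 T cells they were 773 (3.89%) with no filter and 68 (0.787%) after thinning. In CD8 T cells they were 175 (1.42%) at a log2 change of at least 0.5 and 162 (1.32%) with DESeq2. CD8 T cells also had 857 (4.24%) with no filter, 134 (1.53%) after thinning and 120 (0.965%) with the other cell filter. Macrophages had 4 with DESeq2, 1 with RLE factors, 65 with no filter and 2 with strict gates. Dendritic cells had 4 with DESeq2, 95 with no filter, 1 after thinning, 0 with strict gates, 7 with the other cell filter and 0 at 3 Fscn1 UMIs, the gate chosen after seeing the data. As percent of the B cell level, H2-Ob in CD4 T cells was 2.42 after thinning, and with the other cell filter Cd74 was 0.93 in the CD4 gate, and 0.561 in the CD8 gate.

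The replicate number was tried as a block. Same-numbered libraries deviated with correlations of 0.02, 0.06, 0.08, 0.14 and -0.02 in the B, CD4 T, CD8 T, macrophage and dendritic gates, in that order. With 2 libraries per group these values cannot decide whether the numbers pair mice, which the sources used here do not state. With the block 1182, 788, 1018, 53 and 1 genes were called in these classes. In CD4 T cells 1 class II gene was called with the block, beside 6.6% of all genes tested.

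With 1 library left out, 0 to 5 class II genes and 97 to 2584 genes were called in B cells, 0 to 5 and 94 to 2077 in CD4 T cells, and 1 to 4 and 187 to 2168 in CD8 T cells, the most without EV 1 except for class II genes in CD4 T cells, where it was without EV 2. Macrophages had 15 to 86 genes, and dendritic cells 0 to 2 class II genes and 13 to 167 genes. The EV effect differed from that in B cells for 0 to 2 class II genes in dendritic cells and 0 to 1 in CD4 T cells. With all 4 libraries these 2 contrasts called 0.181% and 1.32% of all genes tested. With 1 library left out, 1 group in these EV fits held 1 library, so their counts are descriptions. The level of CD8 over CD4 T cells had 3 to 7 class II genes, beside 21.3% to 25.3% of all genes tested.

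Directions turned for small values. In B cells H2-Eb1 was 0.00 and H2-Ob 0.03 with no filter, and H2-Oa -0.04 with the other cell filter, which also gave H2-Eb1 -0.12 in CD4 T cells. In CD8 T cells H2-Ab1 was -0.01 and H2-Ob 0.02 after thinning, H2-DMa 0.00 with no filter, and Ciita -0.06 with the other cell filter and -0.10 without doublets. With strict gates H2-Aa was -0.06 in macrophages, and in dendritic cells H2-DMa was -0.16 and H2-DMb1 -0.30. Dendritic H2-DMa was -0.01 after thinning, H2-DMb1 -0.09 with the other cell filter and H2-Oa -0.33 at 3 Fscn1 UMIs. For CD8 over CD4 T cells, thinning gave H2-Eb1 0.12, H2-DMb2 -0.08 and Ciita 0.47, and the other cell filter H2-DMb2 -0.38.

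Leaving out 1 library turned H2-Ab1 (-0.34 to 0.03), H2-Eb1 (-0.13 to 0.04) and H2-Ob (-0.07 to 0.05) in B cells. In CD4 T cells it turned H2-Aa (-0.33 to 1.08), H2-Ab1 (-0.57 to 0.98), H2-Eb1 (-0.40 to 0.65), H2-Ob (-0.15 to 0.05) and Cd74 (-0.04 to 0.94), and in CD8 T cells H2-DMa (-0.03 to 0.02) and Ciita (-0.44 to 0.35). In macrophages it turned H2-Aa (-0.11 to 0.37), H2-Ab1 (-0.11 to 0.86), H2-Eb1 (-0.23 to 0.70) and H2-DMa (-0.56 to 0.06), in dendritic cells H2-Ab1 (-0.05 to 0.79), H2-DMb1 (-0.12 to 0.23) and H2-Oa (-0.26 to 0.75), and for CD8 over CD4 T cells H2-Aa (-0.63 to 0.24), H2-Eb1 (-0.60 to 0.18) and H2-DMb2 (-0.12 to 0.19). Thinned macrophages were not run, since 24 cells remained in Control 1, under the minimum of 30.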
